A study of Drosophila melanogaster with 14 samples.

Results

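The arms of miR-281, a microRNA known from insect gut, were followed through embryonic development of the fruit fly Drosophila melanogaster. They were chosen by name, as every row of the count table that holds a product of the 2 miR-281 hairpins, which gave 3 of 466 arms: dme-miR-281-2-5p, dme-miR-281-1-5p and dme-miR-281-3p, written below without the species prefix. The study sequenced small RNA from embryos at 7 labelled stages with 2 libraries each, 14 in all. The labelled times are 160 min for stage 1, 300 min for stage 2, 530 min for stage 3, 645 min for stage 4, 930 min for stage 5, 1160 min for stage 6 and 1300 min for stage 7. The labels name the tissue as embryo and give no genotype, strain or treatment, and no starting point for the minutes. Late embryos below are the 6 libraries of stages 5 to 7, and early embryos the 6 libraries of stages 1 to 3.

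A microRNA gene is transcribed into an RNA that folds into a hairpin. Its stem is cut into a duplex of a 5p and a 3p strand, and as a rule 1 of them is loaded into an Argonaute protein and pairs with messenger RNAs through its seed, near the 5′ end. The other strand is mostly lost, so the ratio of 5p to 3p reads is commonly read as a record of which strand is kept. miR-281 has been described as enriched in the midgut of mosquitoes, where it was studied with dengue virus, and in the silkworm as a regulator of an ecdysone receptor isoform. In the fly embryo the midgut forms from endoderm and becomes a closed, regionalised tube before hatching.

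Both hairpins lie on the minus strand of dm6 chromosome arm 2R, as annotated by Ensembl. The hairpin of copy 1, mir-281-1, spans 12170373 to 12170462, and that of copy 2, mir-281-2, spans 12170153 to 12170244, so copy 1 lies upstream in the direction of transcription and 128 bp separate them. Together they take up 310 bp. Both sit in intron 1 of 2 transcripts of Oda, which encodes ornithine decarboxylase antizyme, an inhibitor of polyamine synthesis, on the same strand. Both also fall inside exon 1 of the non-coding gene asRNA:CR46194, again on that strand. The annotated 5p product has 23 bases in copy 1 (12170427 to 12170449) and 22 bases in copy 2 (12170209 to 12170230). The 3p products have 23 bases in each copy (12170383 to 12170405 and 12170163 to 12170185). The count table gives the 5p arms a name for each copy and the 3p arms 1 shared name. The nearest hairpin outside the pair, mir-988, lies 11183 bp away. The lengths differ by 1 base at most, so read counts of the 3 arms are given without a length correction. How reads that match both copies were counted is not given in the sources used here, and this bears on any comparison of the arms.

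Library totals ran from 17462 to 72507 counts, and 85 arms passed the filter on low counts, all 3 of miR-281 among them. miR-286-3p, a product of the blastoderm-expressed miR-309 cluster, took 9.16% to 22.6% of the counts in late libraries and 57.3% to 65.3% in early ones. TMM scaling factors, which are meant to correct for such shifts in composition, lay between 1.17 and 1.57 in late libraries and between 0.595 and 0.806 in early ones. These ranges lie apart, so the choice of scaling moves all late levels against early ones. How fully the factors correct the shift was not tested, and 80% of the 85 arms were called late against early on this scale. Levels are therefore given as CPM on the TMM scale (a read count divided by the corrected library total). The labels say nothing of separate collections for the 2 libraries of a stage, so a p-value here speaks only of how far these libraries spread, and that spread may be technical. In whole embryos, fewer cells of a type and less RNA per cell cannot be told apart.

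miR-281-2-5p was the most counted of the 3 miR-281 arms in every library. Its level was 2079 and 2915 CPM in the stage 1 libraries, 2771 and 2161 CPM at stage 2, and 3542 and 2034 CPM at stage 3. Stage 4 gave 2047 and 4451 CPM, stage 5 gave 8223 and 5631, stage 6 gave 11765 and 10613, and stage 7 gave 14111 and 4869. The 6 late libraries all lay above the 6 early ones, and only stage 4 replicate 2 came near the late range. In reads, stage 1 had 44 and 51, stage 4 had 80 and 378, and stage 7 had 1404 and 376. Its share of all counts was 0.163% ± 0.0555 at stage 1 (SD, n = 2), 0.404% ± 0.238 at stage 4 and 1.49% ± 0.0994 at stage 6. Among all arms of a library it stood between rank 11 and rank 21 in late libraries and between rank 23 and rank 29 in early ones.

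Ordered by stage mean, miR-281-2-5p was highest at stage 6 with 11189 ± 814 CPM (SD, n = 2), followed by stage 7 with 9489.9 ± 6535, stage 5 with 6927 ± 1833, stage 4 with 3249 ± 1699.9, stage 3 with 2788 ± 1066, stage 1 with 2497 ± 591 and stage 2 with 2466 ± 432. Between stage 5 and stage 4 the libraries did not overlap, while every other pair of neighbours in this order did. The 2 stage 7 libraries stood 1.53 apart on the log2 scale, against a median gap of 0.76 over the 85 arms in that stage, and the stage 4 libraries 1.10 apart, against 0.49. In replicate 2 of stage 7, the library with the lower miR-281-2-5p level, miR-286-3p took 22.6% of counts, and in replicate 1 it took 9.16%. The part of this in the miR-281 level was not tested.

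miR-281-1-5p, the arm named for copy 1, was about an order of magnitude rarer. Stage 1 had 189 and 286 CPM, stage 2 had 173 and 224, stage 3 had 463 and 279, and stage 4 had 153 and 247. Stage 5 had 486 and 307 CPM, stage 6 had 433 and 619, and stage 7 had 1035 and 440.3. These levels rest on 4 to 14 reads in an early library and 10 to 103 reads in a late one. On the TMM scale the late and early libraries overlapped, because stage 3 replicate 1 at 463 CPM lay above 3 of the 6 late libraries. By library total alone they did not overlap. There stage 3 replicate 1, the highest early library, had 291 CPM and stage 5 replicate 2, the lowest late one, had 479 CPM. By stage mean (SD, n = 2) the order was stage 7 with 738 ± 421 CPM, stage 6 with 526 ± 132, stage 5 with 397 ± 127, stage 3 with 371 ± 130.3, stage 1 with 237 ± 68.4, stage 4 with 200.4 ± 66.3 and stage 2 with 198 ± 35.6. Every pair of neighbours in that order overlapped. By mean share of all counts, without TMM factors, stage 4 (0.0247%) stood above stage 3 (0.0245%) and stage 1 (0.0155%).

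miR-281-3p was the rarest of the 3 arms in every library but stage 6 replicate 1, where it had 12 reads and miR-281-1-5p had 10. Stage 1 had 1 and 1 reads of it, stage 2 had 1 and 0, stage 3 had 2 and 2, stage 4 had 4 and 5, stage 5 had 9 and 7, stage 6 had 12 and 14, and stage 7 had 45 and 8. The 6 late libraries thus held 95 reads and the 6 early ones 7, and each late library had more reads than any early one. The count of 0 in stage 2 replicate 2, of 33399 in all, allows a level of up to 112 CPM on the TMM scale (a floor of 3 counts). That is above the other early libraries and above stage 7 replicate 2, the lowest late library at 104 CPM. On this scale it is therefore not settled whether late and early levels of this arm overlap. By library total alone the same floor was 89.8 CPM, below the 121 CPM of stage 7 replicate 2, so the question depends on the scaling as well as on depth. By stage mean on the TMM scale (SD, n = 2) the order was stage 6 with 379.9 ± 197 CPM, stage 7 with 278 ± 247, stage 5 with 171 ± 39.3, stage 4 with 80.6 ± 30.7, stage 3 with 73.0 ± 9.60, stage 1 with 52.2 ± 7.01 and stage 2 with 21.7 ± 30.6. In this order the libraries of stage 5 lay above those of stage 4. By point values those of stage 3, with 2 reads each, lay above those of stage 1, with 1 read each. Counts this low do not settle that order, and stage 2 could not be placed against stage 1.

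**Figure D1:**
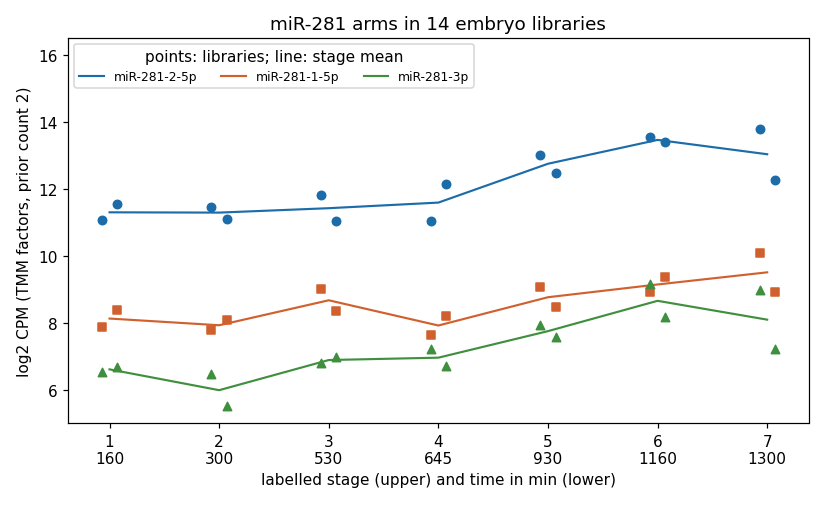
Level of the 3 miR-281 arms (log2 CPM, TMM factors, prior count of 2) against labelled stage and time in min; points are the 14 libraries and lines join stage means. miR-281-2-5p lies above the other arms at every stage, and the stage 7 libraries, 14111 and 4869 CPM for that arm on the linear scale, stand far apart.

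Late against early embryos gave the broad test of change, and all 3 arms rose. miR-281-2-5p averaged 9202 ± 3609.6 CPM in late embryos and 2584 ± 599.8 in early embryos (SD, n = 6 each), a log2 fold change of 1.81 ± 0.30 (SE, edgeR adjusted p = 2.21e-05). miR-281-3p averaged 276 ± 170.1 CPM in late embryos and 48.9 ± 27.4 in early ones, a log2 fold change of 2.52 ± 0.68 (edgeR adjusted p = 0.00208). miR-281-1-5p averaged 553 ± 257 CPM in late embryos and 269 ± 106 in early ones, a log2 fold change of 1.05 ± 0.40 (edgeR adjusted p = 0.0203). Rises were common in these data: 50.6% of all 85 arms were called higher late, and the 3 arms took ranks 30, 36 and 39 by fold change, with miR-281-3p first and miR-281-1-5p last. The median log2 fold change of all tested arms was 0.86. By point values on the TMM scale late libraries lay wholly above early ones for 2 of the 3 miR-281 arms, against 38.8% of all arms. For miR-281-3p this counts the library without a read as 0.

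The call of miR-281-2-5p and of miR-281-3p held when any 1 library was left out. That of miR-281-3p rested on few early reads, and its log2 fold change became 3.55 without stage 2 replicate 1, which left that stage with no read, and 2.04 without stage 7 replicate 1. The call of miR-281-1-5p was close to the threshold. It ended when stage 1 replicate 1, stage 2 replicate 1, stage 4 replicate 1, stage 5 replicate 1, stage 6 replicate 2 or stage 7 replicate 1 was left out, with log2 fold changes of 0.95, 0.99, 0.86, 0.92, 0.94 and 0.80 in that order and edgeR adjusted p-values between 0.0503 and 0.0688. Without stage 7 replicate 2 it was 1.21 (adjusted p = 0.00663). Under the other scalings miR-281-1-5p rose by more. It had 2.03 with library size alone (edgeR adjusted p = 0.00015) and 1.52 with DESeq2 size factors (edgeR adjusted p = 0.00296). The median of all arms also moved under these scalings, by 0.97 and 0.45. The same scalings gave miR-281-2-5p 2.81 and 2.30. With a filter of a mean count of at least 50, which left 39 arms, miR-281-2-5p had 1.15 (edgeR adjusted p = 0.00436), the median of all arms moved by -0.73, and 16 arms were called higher and 18 lower, against 43 higher and 25 lower of 85 arms.

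**Figure D2:**
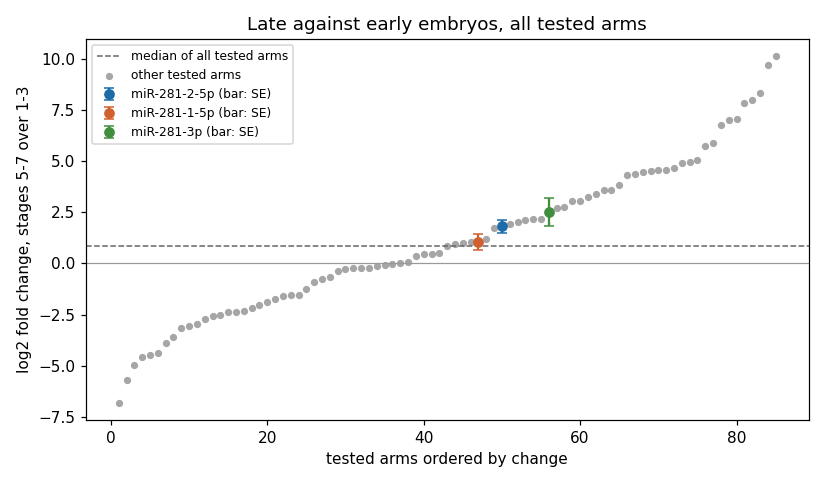
Log2 fold change of late (stages 5 to 7) over early (stages 1 to 3) embryos for the 85 tested arms, ordered from the lowest to the highest; coloured points are the miR-281 arms with their SE and the dashed line is the median of all arms, 0.86. The miR-281 arms lie above that median, at 1.05, 1.81 and 2.52.

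Among all 7 stages, miR-281-2-5p (2.18 between the highest and the lowest stage on the log2 scale, edgeR F-test adjusted p = 0.000872) and miR-281-3p (3.98, adjusted p = 0.0328) differed, and miR-281-1-5p (1.88, adjusted p = 0.0649) did not pass. Of all arms 81.2% were called in this test. DESeq2 called miR-281-1-5p (2.43, adjusted p = 0.0159), as did edgeR without stage 7 replicate 2 (2.36, adjusted p = 0.0225). The call of miR-281-3p ended when either library of stage 1 (3.99 and 3.99) or of stage 3 (3.98 and 3.99), stage 2 replicate 2 (2.98) or stage 6 replicate 1 (3.64) was left out, with edgeR adjusted p-values between 0.0534 and 0.0992. Without stage 2 replicate 1, and so with no read left in stage 2, the range of miR-281-3p was 7.06.

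The ends of the time course differed for both 5p arms. Stage 7 against stage 1 gave a log2 fold change of 1.93 ± 0.53 for miR-281-2-5p (edgeR adjusted p = 0.00302) and 1.65 ± 0.70 for miR-281-1-5p (adjusted p = 0.0403). miR-281-3p had 2.38 ± 1.14 (adjusted p = 0.0636). In this comparison 76.5% of all arms were called. On the same 85 arms, the call of miR-281-2-5p ended without stage 7 replicate 1 (0.97, adjusted p = 0.0974), and without stage 7 replicate 2 the value was 2.50. The call also ended when arms averaging under 50 reads were filtered out (1.02, edgeR adjusted p = 0.124), and it held in 6 of 14 cases where a library was left out and the filter run again. miR-281-1-5p lost its call without either stage 1 library (1.37 and 1.96), stage 4 replicate 1 (1.24), stage 5 replicate 1 (1.65), stage 5 replicate 2 (1.65) or stage 7 replicate 1 (0.90). miR-281-3p gained one without stage 7 replicate 2 (3.05, adjusted p = 0.0116).

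No single step between neighbouring stages was called for any of the 3 miR-281 arms. Of the 18 values (6 steps for 3 arms), 0 passed the adjusted threshold in edgeR or in DESeq2, and 1 had an unadjusted p below 0.05 with each tool. Over all arms and steps 11.2% were called in edgeR, and by step from stage 2 against stage 1 onwards 17.6%, 0%, 35.3%, 14.1%, 0% and 0%. That 1 was miR-281-2-5p in stage 5 against stage 4, with 6927 CPM against 3249 and a log2 fold change of 1.08 ± 0.51 (unadjusted p = 0.0462, edgeR adjusted p = 0.157, where 14.1% of arms were called). In the same step miR-281-1-5p had 0.93 ± 0.64 and miR-281-3p 1.14 ± 0.92. Stage 6 against stage 5 gave 0.69 ± 0.50 for miR-281-2-5p, and stage 7 against stage 6 gave -0.24 ± 0.50, steps in which the same test called 0 of 85 arms.

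Most 5p reads carried the name of copy 2. Over all libraries 287 of 4436 5p reads carried the name of copy 1, a share of 6.47% with an exact interval of 5.76% to 7.23%, or 14.5 copy 2 reads per copy 1 read. By stage the share of copy 1 was 8.65% at stage 1, 7.58% at stage 2, 11.7% at stage 3, 5.57% at stage 4, 5.41% at stage 5, 4.92% at stage 6 and 7.15% at stage 7. Stage 3 was the highest, with an interval of 7.41% to 17.4%, and stage 6 the lowest, with 3.62% to 6.51%. Intervals are exact binomial ones at 95% and cover counting error only, since PCR copies of a molecule are not told apart.

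The copy 1 share was lower in late than in early libraries. The late values were 5.58% and 5.17% at stage 5, 3.55% and 5.51% at stage 6, and 6.83% and 8.29% at stage 7. The early values were 8.33% and 8.93% at stage 1, 5.88% and 9.38% at stage 2, and 11.6% and 12.1% at stage 3. The groups overlapped, with 4 of the 6 late libraries below every early one. The pooled share was 6.22% in late embryos (5.45% to 7.07%, 220 reads of copy 1) and 9.64% in early embryos (6.98% to 12.9%, 40 reads). The mean log2 ratio of copy 1 to copy 2 was -4.03 ± 0.42 in late libraries and -3.20 ± 0.37 in early ones (SD, n = 6 each), a difference of -0.83 (exact two-sided permutation test, p = 0.00649, a single test). Its sign and its p below 0.05 held without any 1 of the 12 libraries. The call depends on counting the 2 libraries of a stage separately: permuting the 3 late and 3 early stage means gave p = 0.1 in the exact test, the smallest it allows. With stages 6 and 7 against stages 1 and 2 alone the difference was -0.61 (exact permutation p = 0.0857). How reads were assigned to copy 1 or copy 2 is not given in the sources used here, and its part in these shares was not tested. The sequences of the 5p arms were not compared either. The shares are therefore shares of read names and do not measure the output of each hairpin.

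The other repeated hairpins of the table mostly gave reads of the arm whose name the copies share, and miR-281 did not. At least 50 reads of copy-specific arms were present for 4 families. In miR-281 these arms held 97.6% of the reads of the hairpins. In miR-2a, miR-2b and miR-6, whose 3p arms share the K-box seed, they held 2.94%, 3.98% and 1.08%. The leading copy took 93.5% of copy-specific reads in miR-281, 67.2% in miR-2a, 77.0% in miR-2b and 62.1% in miR-6. These are descriptions of 4 families, with no test.

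**Figure D3:**
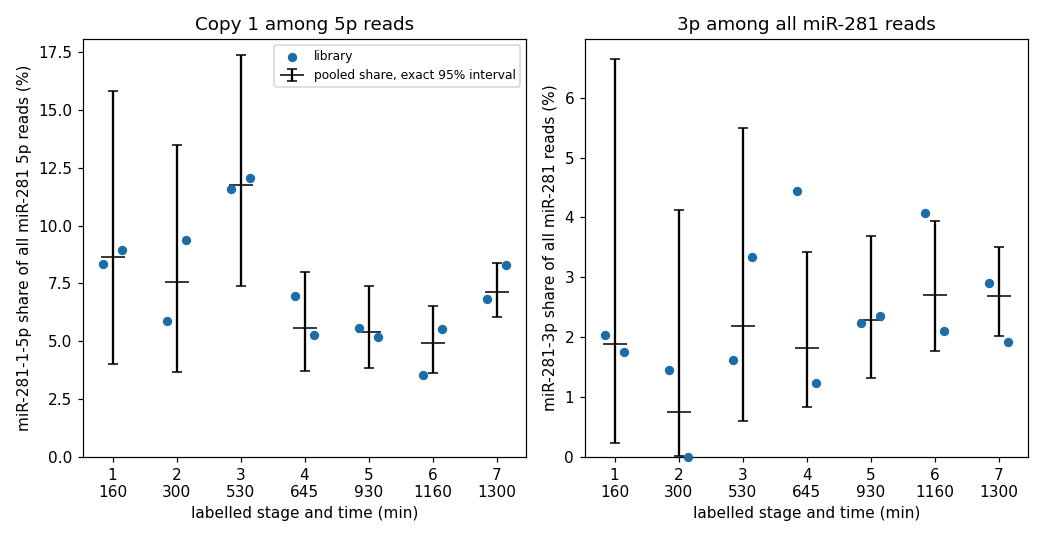
Left, share of copy 1 (miR-281-1-5p) among all miR-281 5p reads in percent; right, share of miR-281-3p among all miR-281 reads in percent, both against labelled stage and time in min. Blue points are libraries, black marks the pooled share of a stage with its exact 95% interval; copy 1 reaches 11.7% in stage 3 and 4.92% in stage 6, and the 3p intervals of all stages overlap.

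The 5p strand dominated the miR-281 hairpins throughout. Over all libraries there were 4436 5p reads and 111 3p reads, or 40.0 5p reads per 3p read, and the 3p share was 2.44% (2.01% to 2.93%). By stage the 3p share was 1.89% at stage 1, 0.752% at stage 2, 2.19% at stage 3, 1.82% at stage 4, 2.29% at stage 5, 2.71% at stage 6 and 2.69% at stage 7. In single libraries it ran from 1.91% to 4.08% in late embryos and from 0% to 3.33% in early embryos, so the groups overlapped. Pooled, it was 2.62% in late embryos (2.12% to 3.19%, 95 reads) and 1.66% in early embryos (0.669% to 3.39%, 7 reads). A difference between late and early embryos was not detectable at this depth. The mean log2 ratio of 5p to 3p was 5.21 ± 0.40 in late libraries and 5.49 ± 0.84 in early ones (SD, n = 6 each), a difference of -0.27 (exact two-sided permutation test, p = 0.556, adjusted p = 0.595 over 76 hairpins). The sign of that difference turned without stage 2 replicate 2, the library with no 3p read (0.032), and with a pseudocount of 1 (0.12).

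Other hairpins were measured the same way for comparison. Of 76 hairpins with at least 50 reads, 51.3% were called in the exact permutation test of the arm ratio. That test includes hairpins with no early read, whose early ratio is 0 by construction. It also includes hairpins with few or no reads of 1 arm, where the ratio mostly follows the level of the other arm. An example is miR-92b, called with 0 5p reads and 30430 3p reads. Among the 21 hairpins with at least 5 reads of each arm in late and in early libraries, 28.6% were called. Counted from the smallest absolute change, miR-281 stood at place 3, and the median was 0.63. That place is not well determined, since the change rests on 7 early 3p reads and depends on the pseudocount. Pooled, miR-281 had 37.2 5p reads per 3p read in late embryos and 59.3 in early ones. By 5p share over all libraries miR-281 (97.6%) stood at place 21 of 76. Just above it were miR-968 (97.9%), miR-306 (98.3%) and miR-316 (98.3%), and just below it miR-5 (96.7%), miR-1000 (94.5%) and miR-10 (89.8%). The name miR-281-3p stands for 2 hairpins, and the treatment of reads that match several loci is not given in the sources used here. The other arms that stand for several hairpins ranged widely in reads. There were 5313 for miR-6-3p, 4419 for miR-2b-3p, 2013 for miR-2a-3p and 657 for miR-13b-3p. By contrast miR-983-5p had 2, and miR-983-3p, miR-4966-3p and miR-4966-5p had 0. The part of such counting in the low 3p share was not tested.

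**Figure D4:**
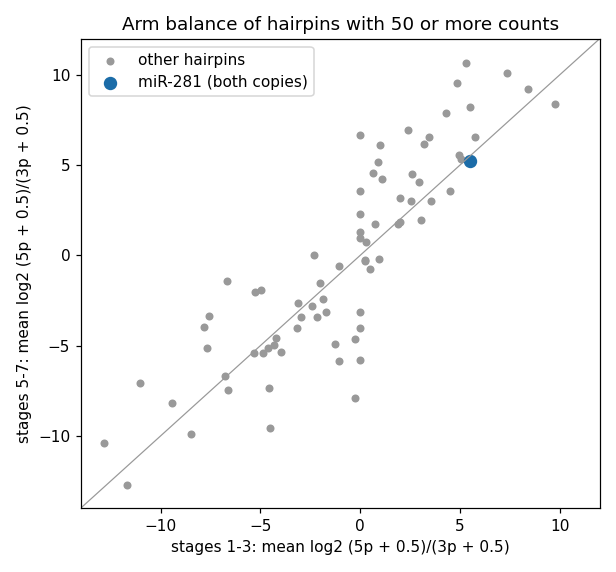
Mean log2 ratio of 5p to 3p reads (0.5 added to each) in late libraries, vertical axis, against early libraries, horizontal axis, for the 76 hairpins with at least 50 reads; the line marks equal values. miR-281, both copies summed, lies near the line at 5.21 late and 5.49 early, and points at 0 on the horizontal axis include hairpins with no early read.

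The 3 arms of miR-281 were correlated over the 14 libraries, but miR-281-2-5p was correlated more closely with the 5 other arms named below. In log2 CPM the Pearson correlation was 0.88 between miR-281-3p and miR-281-2-5p, 0.85 between miR-281-1-5p and miR-281-2-5p, and 0.73 between miR-281-3p and miR-281-1-5p. These correlations describe 14 libraries whose arms share a library, a depth and a scaling factor. The other arms most like miR-281-2-5p were miR-956-3p (0.97), miR-284-5p (0.96), miR-277-3p (0.91), whose known targets break down branched-chain amino acids, bantam-3p (0.91), which promotes tissue growth, and miR-981-3p (0.90). The least like it was miR-312-3p of the miR-310 cluster (-0.92). Of the 5 most like arms, all but bantam-3p were nearly absent early, which miR-281-2-5p was not. It had 3316 late and 375 early reads, against 2818 and 1 for miR-956-3p, 1022 and 0 for miR-284-5p, 590 and 1 for miR-277-3p, and 74 and 1 for miR-981-3p. bantam-3p had 43312 late and 3858 early reads.

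The rarer arms had lower correlations with other arms. The closest to miR-281-3p were miR-284-5p (0.90), miR-927-5p (0.87), miR-957-3p (0.87), miR-956-3p (0.85) and bantam-3p (0.82), and the least like it was miR-995-3p, from an intron of Cdk2 (-0.90). The closest to miR-281-1-5p were miR-981-3p (0.83), miR-284-5p (0.79), miR-956-3p (0.78), miR-957-3p (0.78) and miR-31b-5p (0.77), and the least like it was miR-11-5p, from an intron of E2f1 (-0.75). miR-284-5p and miR-956-3p thus stood among the 5 closest arms of all 3 miR-281 arms.

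**Figure D5:**
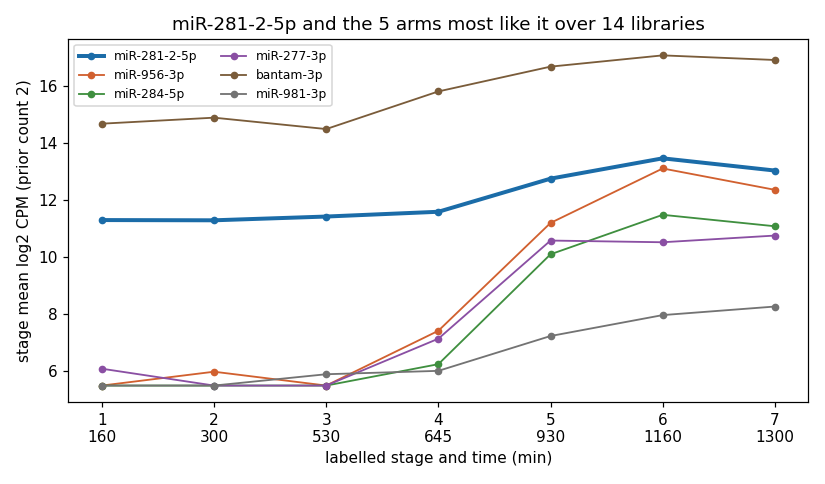
Stage mean of log2 CPM (prior count of 2) against labelled stage and time in min for miR-281-2-5p, thick line, and the 5 arms with the highest correlation with it over 14 libraries. The values of 5.50 at the lower left are stages with no read; miR-281-2-5p starts from 11.3 in stage 1, where miR-956-3p, miR-284-5p and miR-981-3p had no read.

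Other microRNAs known from gut or epithelia were listed by hairpin: miR-8, miR-31a, miR-31b, miR-263a, miR-275, miR-305, miR-277, miR-285, bantam and let-7. Of their 20 arms 12 were tested, and late against early 8 rose, 3 fell and 1 did not pass. That is 66.7% higher and 25.0% lower, against 50.6% higher and 29.4% lower among all 85 arms, and the median log2 fold change was 2.06 in the list and 0.86 over all arms. bantam-3p rose by 2.19 ± 0.19 on the log2 scale and bantam-5p by 2.13 ± 0.40. miR-8-3p, which acts on intestinal stem cell differentiation in the adult fly, rose by 4.31 ± 0.25. miR-31a-5p, known from patterned embryonic epithelia, rose by 4.66 ± 0.28, and miR-263a-5p, which limits a sodium channel in gut enterocytes, by 1.72 ± 0.17, close to the 1.81 of miR-281-2-5p.

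The 3 falls of the list came from the neighbouring hairpins of miR-275 and miR-305. miR-275-3p, known in mosquitoes from blood digestion, averaged 323 ± 156 CPM in late embryos and 8085 ± 3212 in early embryos (SD, n = 6 each), a log2 fold change of -4.60 ± 0.36 (edgeR adjusted p = 7.03e-10). miR-305-3p had -2.06 ± 0.31 and miR-305-5p -2.38 ± 0.43. The arm that did not pass was miR-263a-3p (0.36 ± 0.69). The list therefore held arms that moved like miR-281-2-5p and arms that moved the other way.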

How the data were processed

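Small RNA reads of 14 embryo libraries were analysed as raw read counts per mature miRNA arm, as the authors deposited them. Per the labels' protocols, total RNA was taken with TRIzol and a TruSeq small RNA kit was used at reduced volumes with 15 cycles of PCR. Per the submitters' processing notes, Bowtie, HTSeq and the build dm6 were used. For their versions, the miRNA annotation release and the handling of reads that match several loci, nothing is stated in the sources used here. Columns were matched to libraries by title, and replicate numbers only name libraries, in accession order.

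The edgeR 4.0.16 quasi-likelihood test (R 4.3.3, TMM factors, filterByExpr by stage, 1 coefficient per stage, 7 residual degrees of freedom) was fitted on all 14 libraries, with Benjamini-Hochberg adjustment over 85 tested arms and a threshold of 0.05. Standard errors were derived from the log2 fold change and the F statistic, and log2 CPM used a prior count of 2. Arm and copy ratios used a pseudocount of 0.5 and exact two-sided permutation tests over libraries (scipy 1.17.1), adjusted over 76 hairpins for arms. Intervals of pooled shares are exact binomial at 95% and cover counting error only, since reads carry no molecular identifiers. Alternatives were DESeq2 1.42.0, DESeq2 size factors, library size alone, other filters, summed copies, removal of miR-286-3p and removal of each library. The code was tested on simulated data. Libraries of one stage differed by more than sampling noise in every stage (chi-square per degree of freedom between 2.13 and 139). Loci came from Ensembl release 115 on dm6, matched by name.

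The miR-281 arms, the gut and epithelium list and the comparisons were chosen with earlier results of these data known. Besides the members, named arms are the 5 with the highest and the 1 with the lowest correlation with each member, the 6 most abundant of the list, and the 3 hairpins on either side of miR-281 in 5p share. The families miR-2a, miR-2b and miR-6, miR-13b-3p, miR-305-3p, miR-305-5p and miR-263a-3p were named after their values were seen. So were the arms of miR-983 and miR-4966, and miR-286-3p was named as the most abundant arm.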

Additional observations from a re-analysis of the deposited data

Results flagged for a closer look

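In the 6 early libraries, stage 2 replicate 2 lay apart from the others in miR-281-3p. It had no read of that arm and 5.50 log2 CPM with the prior count of 2, and the gap to the next library was 66.1% of the range of the group. The other early libraries had 1 or 2 reads. This was 1 of 10 groups of 6 libraries looked at in this way, and chance flags about 1 in 20 groups of continuous, normally spread values. The values of this group rest on 2 reads at most, so that rate need not hold for it.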

How the results depend on the processing

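No paired analysis was possible because the labels carry no replicate numbers. Log2 fold changes of late over early embryos kept their direction and their call for miR-281-2-5p and miR-281-3p under every alternative that gave a value; without 1 library each they lay between 1.49 and 2.00 and between 2.04 and 3.55, and with the filter run again between 1.33 and 1.99 and between 1.81 and 3.32. The lowest value of miR-281-2-5p was 1.15, with a mean count of at least 50. That of miR-281-1-5p lay between 0.80 and 1.21 and, with the filter run again, 0.55 and 1.30, where its call held in 6 of 14 cases. A stage left with 1 library was assumed to vary like the others. Stage 7 against stage 1 without 1 library each gave 0.97 to 2.50 for miR-281-2-5p (filter run again 1.03 to 2.21), 0.90 to 2.13 for miR-281-1-5p (0.89 to 1.91) and 0.96 to 3.05 for miR-281-3p (1.02 to 2.66), and with the filter run again the call held in 6 of 14 cases for miR-281-2-5p and in 4 for miR-281-1-5p. Among stages the range was 2.09 to 2.52 for miR-281-2-5p (1.91 to 2.65), 1.42 to 2.36 for miR-281-1-5p (1.37 to 2.34) and 2.98 to 7.06 for miR-281-3p (2.57 to 7.10, called in 6 of 14 cases).

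Among stages miR-281-1-5p was called with DESeq2 size factors (2.41), library size alone (2.66), no filter (2.25), DESeq2 (2.43), without miR-286-3p (2.08) and without both stage 4 replicate 1 and stage 7 replicate 2 (2.19). In stage 7 against stage 1 miR-281-3p was called with library size alone (3.39), no filter (2.96), without miR-286-3p (2.72) and without those 2 libraries (2.70). There, miR-281-2-5p was not called with a mean count of at least 50 (1.02), nor miR-281-1-5p with the 2 stages alone (1.10). The arm ratio difference turned positive with a pseudocount of 1 (0.12) and lay between -0.46 and 0.032 without 1 library each. The copy ratio difference lay between -0.96 and -0.70 without 1 library each, kept -0.83 with stage means permuted (exact p = 0.1) and was -0.61 with stages 6 and 7 against stages 1 and 2. The cause of these changes was not tested. A mean count of at least 50 removes miR-281-1-5p and miR-281-3p, which then have no value. The alternatives that left out 2 libraries, ran the filter again or asked for 5 reads of each arm were chosen after seeing the data. Depth limits the early 3p share, which rests on 7 reads.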
